A study of Mus musculus with 16 samples.

Results

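The genes described here make, break down or regulate the polyamines putrescine, spermidine and spermine: Odc1, Amd1, Srm, Sms, Oaz1, Oaz2, Azin1, Sat1 and Smox. A gene was taken when the gene name on the array was one of these 9 symbols. By that rule 8 genes were found, with 19 probes, because no probe carried the name Amd1. All 8 passed the filter on dim probes and were tested among 19367 genes, out of 30214 gene names on the array.

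AML12 is a mouse hepatocyte line. The cells carried a doxycycline-inducible short hairpin RNA (shRNA), either a scramble sequence or one directed at eIF6, an initiation factor that binds the large ribosomal subunit and keeps it from joining the small one too early. Every group received doxycycline and 1 h of insulin, at 100 nM in the sample descriptions, whereas the treatment text of the labels writes mM for the same number; no group without insulin was analysed here. RNA of the light fractions of a sucrose gradient was pooled as subpolysomal and that of the heavy fractions as polysomal, which gave 4 groups of 4 arrays: scramble subpolysomal, scramble polysomal, eIF6 shRNA subpolysomal and eIF6 shRNA polysomal. The methods describe biological quadruplicates and do not say whether a line was a clone. Each of 4 slides held 1 array of every group.

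Polyamines are small cations that bind RNA and ribosomes and are needed for cell growth, and one of them, spermidine, is the precursor of hypusine in the translation factor eIF5A. Ornithine decarboxylase (Odc1) makes putrescine from ornithine, a substrate that hepatocytes share with the urea cycle, S-adenosylmethionine decarboxylase (Amd1) supplies the aminopropyl donor, and spermidine synthase (Srm) and spermine synthase (Sms) extend the chain. Antizymes (Oaz1, Oaz2) bind ornithine decarboxylase and deliver it to the proteasome, the antizyme inhibitor Azin1 binds the antizymes in its place, and spermidine/spermine acetyltransferase (Sat1) and spermine oxidase (Smox) degrade the end products. The pathway is known for control at translation: full-length antizyme needs a ribosomal frameshift that polyamines favour, and upstream reading frames are known in the Odc1, Amd1 and Azin1 messages.

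The sequences that follow are the last 30 bases of the 60-base probes on which the results turn, written 5′ to 3′ in the sense of the mRNA as the deposited files give them, with the polyadenylation signal AATAAA in capitals. They show which of these probes hold that signal in their last bases and, with the positions, which probes of 1 gene overlap. Positions are mm9 and cover the whole probe. The annotation of exons and untranslated regions in that build was not used here.
Oaz1, A_55_P2035454, chr10:80291975-80292034, plus strand: caaatccAATAAAgtgatctcgttcattgg
Oaz1, A_55_P2171047, chr10:80291975-80292035, plus strand: caaatccAATAAAgtgatctcgttaaaaaa
Odc1, A_55_P1995173, chr12:17557831-17557890, plus strand: gtgaaAATAAAgtatcttgaaataactggg
Odc1, A_55_P2035102, chr12:17557836-17557895, plus strand: AATAAAgtatcttgaaataactgggaaaaa
Sms, A_55_P2115995, chrX:153881886-153881945, minus strand: tctgAATAAAcaaatgtgctgcttcttcct
Sms, A_55_P1998309, chrX:153883630-153883689, minus strand: attaaaatttggtgcttttaaaggttttaa
Sms, A_55_P2025911, chrX:153885307-153885366, minus strand: cttgtggaattctcaaaagagattgtctgt
Azin1, A_52_P117313, chr15:38417343-38417402, minus strand: atcgtctatatactcttccttattgctctg
Azin1, A_52_P24631, chr15:38418482-38418541, minus strand: ggttctattaataataactaaggaccccag
Azin1, A_51_P234544, chr15:38420056-38420115, minus strand: tcgcaggttaagcttgtctggtctacattc
Srm, A_55_P2002376, chr4:147968254-147968313, plus strand: cgccttcgtactgcccgagttcacccggaa
Srm, A_51_P300709, chr4:147968433-147968492, plus strand: ccaaggatcttccaagttgtctggggacca

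Both Oaz1 probes start at the same base and differ at 5 positions counted from the 5′ end of the first, C55A, T57A, T58A, G59A and G60A, so they are close to a single measurement. The first pair of Odc1 probes shares 55 bases with 1 mismatch, T14G, and a further Odc1 probe (chr12:17557869-17557928) overlaps both by position, whereas the fourth lies upstream at chr12:17554799-17554858. In scramble subpolysomal RNA the mean log2 level was 15.64 for A_55_P1995173 and 8.69 for A_55_P2035102, so overlap did not make this pair the same measurement. The Sms and Azin1 probes do not overlap each other. AATAAA stood on the printed strand of 7 of the 19 probes (36.8%) and of 12.6% of all 39429 non-control probes, without counting the complementary strand. The 2 Srm probes have no such signal and a GC content of 55% each, above the 35% to 45% of the Odc1, Oaz1, Sms and Azin1 probes.

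Well above background were 20196 to 24960 probes per array, with overlapping ranges in the 4 groups, and no spot was saturated. Eif6, the target of the shRNA, fell on polysomes by 1.05 on the log2 scale (SE 0.079, limma adjusted p = 1.45e-07; -1.37 and adjusted p = 0.104 with spike-in scaling) and was at 11.53 to 11.66 on the scramble and 11.49 to 11.74 on the eIF6 shRNA subpolysomal arrays. Of 11 hepatocyte markers, 8 were well above background on all 16 arrays, Alb on 7, Apoa1 on 3 and Fgb on none. Of 8 fibroblast or stellate markers, 5 were above background on all 16 arrays and Lum on none. Their summed log2 level was 17.27 to 17.96 on scramble and 14.20 to 14.68 on eIF6 shRNA polysomal arrays, and 16.82 to 16.93 against 15.39 to 15.83 on subpolysomal arrays. Of 5 measured markers each, 2 macrophage and 2 endothelial markers were above background on all 16 arrays, and Clec4f, Cdh5, Stab2 and Tek on none. The part of these marker differences in the polyamine results was not tested, and in bulk RNA fewer cells of a type and less RNA per cell cannot be told apart.

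All levels given are log2 signals after quantile normalization, which gives every array the same distribution, so that each value ranks an mRNA against the others in its fraction and the total amount of polysomal RNA is not contained in it. The first comparison asks where each message lay in the gradient, as polysomal minus subpolysomal log2 level. In scramble cells 7 of the 8 genes differed between the fractions, 3 lower on polysomes (Odc1, Oaz2 and Sat1) and 4 higher (Azin1, Oaz1, Sms and Srm). Among all genes 28.4% were lower and 31.7% higher, so a call as such was common. In eIF6 shRNA cells the same 3 genes were lower and Azin1, Oaz1 and Sms were higher, against 28.7% and 32.1% of all genes. The median over the 8 genes was 0.13 in each shRNA state, with 0.035 and 0.034 over all genes.

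**Figure D1:**
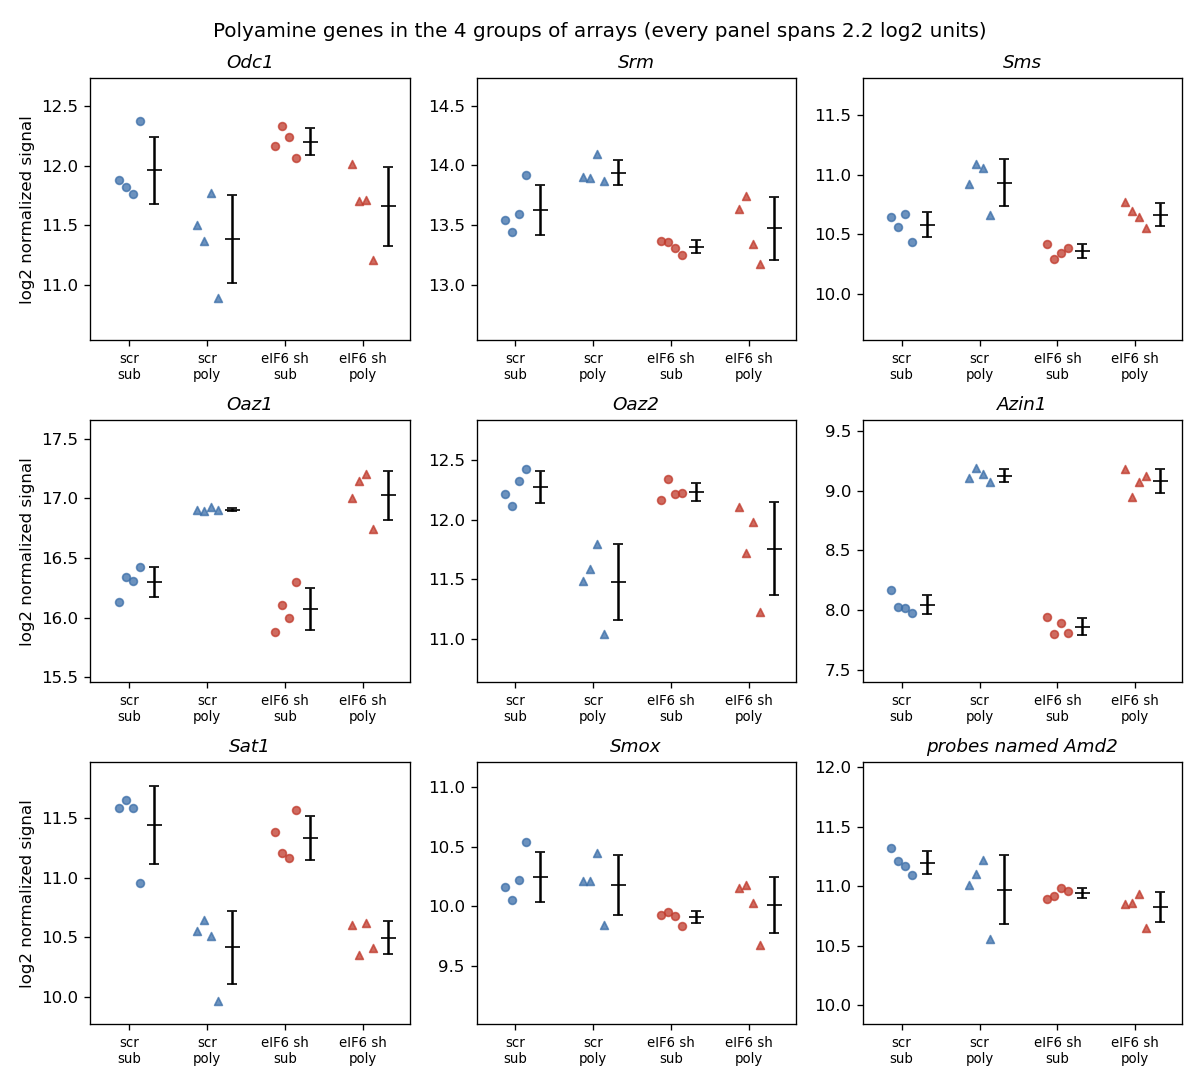
Log2 normalized signal of each polyamine gene, and of the probes named Amd2, on every array. Circles are subpolysomal and triangles polysomal arrays, blue is scramble (scr) and red eIF6 shRNA (eIF6 sh), arrays 1 to 4 run from left to right within a group, and bars give the mean and SD of 4 arrays. Azin1 polysomal arrays sit between 8.95 and 9.19, all above the subpolysomal ones.

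Azin1, the antizyme inhibitor, lay toward polysomes in both states. It was at 8.16, 8.03, 8.02 and 7.97 on the scramble subpolysomal arrays 1 to 4 and at 9.11, 9.19, 9.14 and 9.07 on the polysomal ones. With eIF6 shRNA it was at 7.95, 7.80, 7.89 and 7.81 on subpolysomal and 9.18, 8.95, 9.08 and 9.12 on polysomal arrays. Every polysomal array thus lay above every subpolysomal array in both states. The difference was 1.08 in scramble (95% confidence interval 0.93 to 1.24, limma adjusted p = 1.46e-08) and 1.22 in eIF6 shRNA cells (1.06 to 1.38, adjusted p = 5.34e-09). These values include a dim probe. The probe nearest the 3′ end, A_52_P117313, was well above background on 1 of 4 subpolysomal arrays in each state, and its differences of 1.54 and 1.91 therefore rest on dim subpolysomal spots. With only the 2 probes that were well above background on all 16 arrays, the gene gave 0.86 in scramble (limma adjusted p = 6.96e-08) and 0.88 in eIF6 shRNA cells (adjusted p = 6.13e-08), or 1.81-fold and 1.84-fold, which in eIF6 shRNA cells is below the 0.95 of Oaz1.

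Oaz1, the major antizyme, was at 16.13, 16.34, 16.30 and 16.42 on scramble subpolysomal arrays and at 16.90, 16.89, 16.93 and 16.90 on polysomal ones. With eIF6 shRNA the subpolysomal arrays read 15.88, 16.11, 16.001 and 16.30 and the polysomal ones 17, 17.15, 17.21 and 16.75. Fractions did not overlap in either state. The difference was 0.61 in scramble (0.37 to 0.85, limma adjusted p = 2.53e-04) and 0.95 in eIF6 shRNA cells (0.71 to 1.19, adjusted p = 3.69e-06). This direction depended on the scaling: with arrays set to their 75th percentile the values were -0.24 and -0.18, while the median of all genes was then -0.34 and -0.37, and with each fraction normalized separately they were -0.16 and 0.21.

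Oaz2, the second antizyme, lay the other way. It was at 12.22, 12.12, 12.33 and 12.43 on scramble subpolysomal and 11.49, 11.59, 11.80 and 11.04 on polysomal arrays. With eIF6 shRNA it was at 12.16, 12.34, 12.22 and 12.22 on subpolysomal and 12.11, 11.72, 11.98 and 11.23 on polysomal arrays. All polysomal arrays were below the subpolysomal ones, by a narrow margin in eIF6 shRNA cells. Oaz2 was 0.79 lower on polysomes in scramble (-1.18 to -0.41 as polysomal minus subpolysomal, limma adjusted p = 0.00141), and the difference in eIF6 shRNA cells was -0.48 (-0.86 to -0.095, adjusted p = 0.0313). The eIF6 shRNA call was lost without replicate 2 (-0.43, adjusted p = 0.152), with each fraction normalized separately (-0.32, adjusted p = 0.124) and without the detection filter (adjusted p = 0.0521). The 2 antizymes thus took opposite sides of the gradient on quantile-normalized values. Relative to the median of all genes Oaz2 was below it in all 18 settings, which are not independent of each other. Oaz1 was above it in 17 of 18 in scramble and in all 18 in eIF6 shRNA cells.

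Odc1 messages, which encode the enzyme that both antizymes bind, were also lower on polysomes. On scramble arrays Odc1 was at 11.88, 11.82, 11.76 and 12.38 in subpolysomal and 11.50, 11.37, 11.78 and 10.89 in polysomal RNA, so the fractions met at array 3. With eIF6 shRNA it was at 12.17, 12.34, 12.24 and 12.07 in subpolysomal and 12.01, 11.70, 11.71 and 11.21 in polysomal RNA, and the fractions did not overlap. The differences were -0.58 (-0.996 to -0.16, limma adjusted p = 0.0198) and -0.54 (-0.96 to -0.13, adjusted p = 0.0260). The call in scramble was lost without replicate 4, at -0.27 (adjusted p = 0.0676), and without replicate 2, at -0.62 (adjusted p = 0.0684). That in eIF6 shRNA cells was lost without replicates 2 and 3 (-0.51 and -0.55, adjusted p = 0.123 and 0.0698), with each fraction normalized separately (-0.45, adjusted p = 0.0557) and with the brightest probe (-0.13, adjusted p = 0.442). The 4 probes gave -0.75, -0.68, -0.47 and -0.41 in scramble and -0.80, -0.75, -0.49 and -0.13 in eIF6 shRNA cells, where the last of these is A_55_P1995173.

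Sat1, the acetyltransferase that starts polyamine catabolism, was the gene farthest toward the subpolysomal fractions and was read by 1 probe. It was at 11.58, 11.66, 11.59 and 10.96 on scramble subpolysomal and 10.55, 10.64, 10.51 and 9.96 on polysomal arrays. With eIF6 shRNA it was at 11.39, 11.21, 11.17 and 11.57 on subpolysomal and 10.61, 10.35, 10.62 and 10.41 on polysomal arrays. No polysomal array reached a subpolysomal one of its state, and array 4 was the lowest of both scramble groups. The differences were -1.03 (-1.40 to -0.66, limma adjusted p = 1.14e-04) and -0.84 (-1.21 to -0.47, adjusted p = 6.77e-04), that is 2.04-fold and 1.79-fold lower on polysomes.

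Spermine synthase (Sms) was at 10.44 to 10.67 on scramble subpolysomal and 10.66 to 11.10 on polysomal arrays, and at 10.29 to 10.42 and 10.55 to 10.77 with eIF6 shRNA. The fractions met at 1 pair of arrays in scramble and were apart in eIF6 shRNA cells. Averaged over its probes the gene was higher on polysomes by 0.35 (0.15 to 0.56, limma adjusted p = 0.00532) and 0.31 (0.10 to 0.51, adjusted p = 0.0127). The probes disagreed: A_55_P2115995 and A_55_P2025911 gave 0.71 and 0.58 in scramble and 0.63 and 0.50 in eIF6 shRNA cells, whereas A_55_P1998309, which lies between them on the chromosome, gave -0.22 in both (adjusted p = 0.0828 and 0.0883). The gene value therefore joins probes of opposite sign. Its call was lost in scramble without replicate 2 (adjusted p = 0.0671) and in eIF6 shRNA cells without replicate 1, 2 or 3 (adjusted p = 0.0790, 0.0894 and 0.0605).

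Spermidine synthase (Srm) was higher on polysomes in scramble by 0.31 (0.041 to 0.59, limma adjusted p = 0.0459), close to the threshold. In eIF6 shRNA cells the difference was 0.15 (-0.12 to 0.43, adjusted p = 0.319). Leaving out replicate 1, 2 or 3 put the scramble value at 0.30, 0.27 and 0.25 with adjusted p = 0.160, 0.148 and 0.222. The call was also lost without the detection filter (0.31, limma adjusted p = 0.0705) and in most fits that left out a single array. Spermine oxidase (Smox), which turns spermine back into spermidine, did not pass the test in either state, with -0.063 (-0.37 to 0.24) in scramble and 0.10 (-0.20 to 0.41) in eIF6 shRNA cells.

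**Figure D2:**
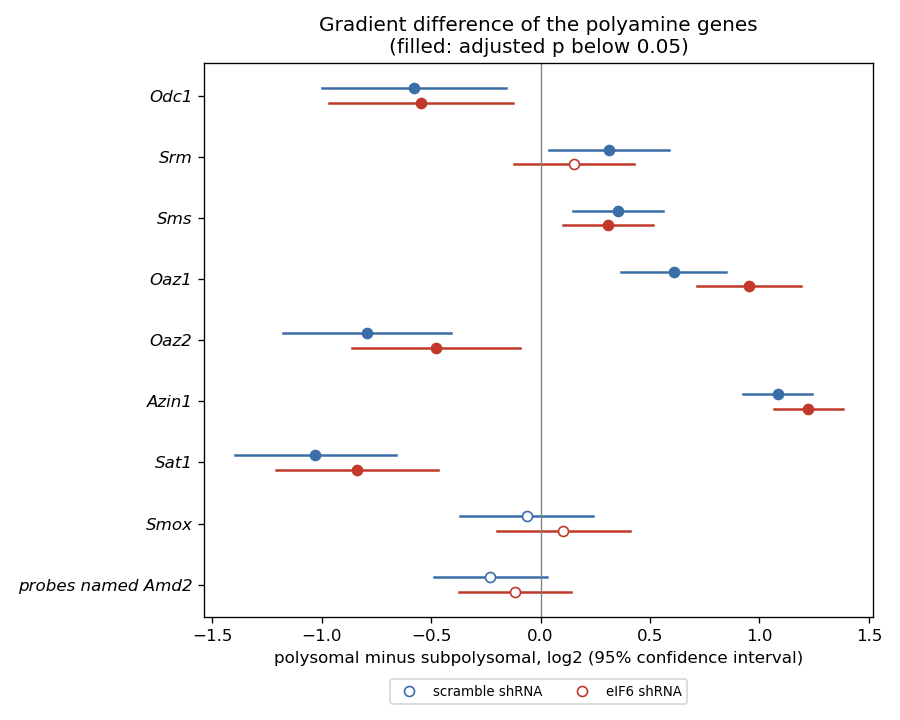
Polysomal minus subpolysomal log2 level of each gene in scramble (blue) and eIF6 shRNA (red) cells, with limma 95% confidence intervals; filled points have an adjusted p below 0.05. Azin1 lies at 1.08 and 1.22, where the values include a probe with dim subpolysomal spots, and Sat1 at -1.03 and -0.84.

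The gradient order held unequally under other scalings. Relative to the median of all genes, Azin1 and Srm stood above it and Odc1, Oaz2 and Sat1 below it in all 18 settings, in both states. With spike-in scaling the median of all genes itself moved to 1.52 in scramble and 1.31 in eIF6 shRNA cells, and each of the 8 genes then had a positive polysomal minus subpolysomal value, the lowest being Sat1 at 0.86 and 0.84. Sat1 was thus 0.67 and 0.47 below the median gene under that scaling.

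**Figure D3:**
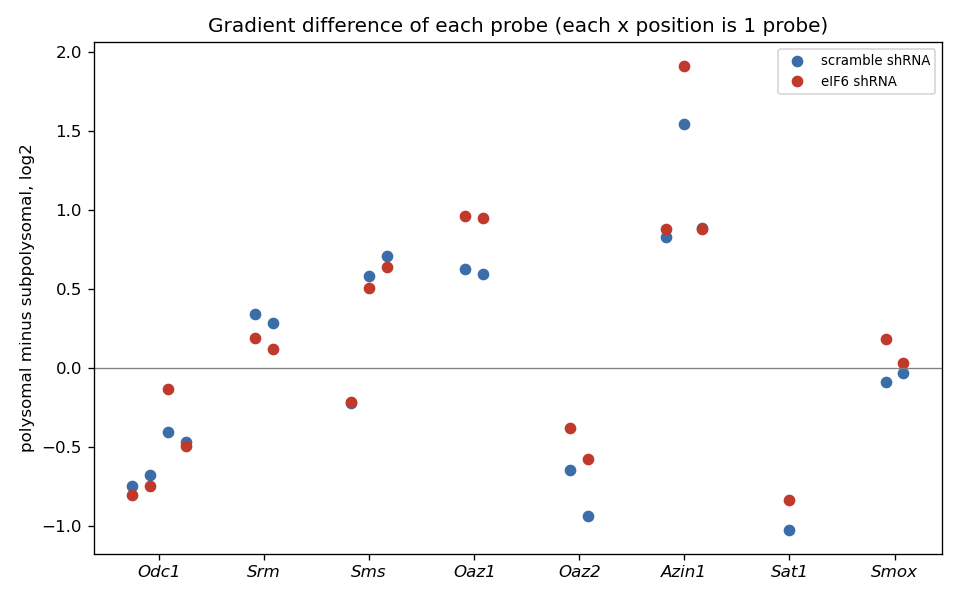
Polysomal minus subpolysomal log2 level of each of the 19 probes, one horizontal position per probe, in scramble (blue) and eIF6 shRNA (red) cells. One Sms probe lies at -0.22 below its 2 partners, and one Azin1 probe at 1.54 and 1.91 above its partners.

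The second comparison asks which polyamine messages changed on polysomes when eIF6 was depleted. Of the 8 genes 1 was called, Srm, which was lower, against 10.7% of all genes called lower and 11.1% higher, so the count was near the background. At an unadjusted p below 0.05 there were 2 genes, both lower (Srm and Sms), against 14.9% of all genes lower and 16.7% higher. The median change of the 8 genes was 0.016 and that of all genes also 0.016.

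Srm was at 13.90, 13.89, 14.09 and 13.87 on scramble polysomal arrays and at 13.63, 13.75, 13.34 and 13.17 on eIF6 shRNA polysomal arrays. The groups did not overlap, and Srm was lower with eIF6 shRNA within each of the 4 slides, by differences of -0.73 to -0.12. Srm fell by 0.47 on the log2 scale (SE 0.13, 95% confidence interval -0.74 to -0.19, limma adjusted p = 0.0155), which is 1.38-fold. Its 2 probes, which share no base, each passed the test, with -0.49 (adjusted p = 0.0134) and -0.44 (adjusted p = 0.0254). The call was lost without replicate 1 (-0.53, adjusted p = 0.0593), without replicate 3 (-0.37, adjusted p = 0.186), without the third eIF6 shRNA polysomal array alone (-0.42, adjusted p = 0.0508) and with spike-in scaling (-0.92, adjusted p = 0.490), under which the median of all genes was -0.48.

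Among the other enzymes of synthesis, Odc1 differed by 0.27 (-0.15 to 0.69, limma adjusted p = 0.393) and Sms by -0.27 (-0.47 to -0.061, adjusted p = 0.0634). Without the fourth scramble polysomal array Sms passed the test as well. Antizymes gave 0.12 (-0.12 to 0.36) for Oaz1 and 0.28 (-0.10 to 0.66) for Oaz2, and Azin1 gave -0.046 (-0.20 to 0.11). The interval of Azin1 with all its probes was the narrowest of the 8 genes. Oaz2 was called higher without the fourth eIF6 shRNA polysomal array, at 0.46 (limma adjusted p = 0.0479). For the catabolic enzymes the values were 0.078 (-0.29 to 0.45) for Sat1 and -0.17 (-0.47 to 0.13) for Smox. Of the polysomal arrays of a group, the fourth was the lowest for 7 of the 8 genes in scramble and for 6 in eIF6 shRNA cells, and these 2 arrays lay on different slides.

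In subpolysomal RNA none of the 8 genes was called by limma, against 12.3% of all genes lower and 11.8% higher. At an unadjusted p below 0.05 there were 4, all lower with eIF6 shRNA: Srm, Smox, Sms and Azin1, against 17.5% of all genes lower and 18.2% higher. Their differences were -0.31 (-0.58 to -0.033, adjusted p = 0.0980), -0.34 (-0.64 to -0.033, adjusted p = 0.102), -0.22 (-0.43 to -0.014, adjusted p = 0.115) and -0.19 (-0.34 to -0.027, adjusted p = 0.0842). For Srm the scramble arrays read 13.44 to 13.92 and the eIF6 shRNA arrays 13.25 to 13.37. Smox was at 10.05 to 10.54 against 9.83 to 9.95, Sms at 10.44 to 10.67 against 10.29 to 10.42 and Azin1 at 7.97 to 8.16 against 7.80 to 7.95. The median of the 8 genes was -0.20, with 0.025 for all genes. Without replicate 4 the fit called 4 genes, namely Odc1 (0.43), Sms (-0.28), Oaz1 (-0.26) and Sat1 (-0.35), and only Sms is in both sets of 4. The shares of all genes given above belong to the fit with all arrays, not to this one. Over the alternatives 346 to 3106 of all genes were called lower and 39 to 3049 higher in subpolysomal RNA.

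The third comparison asks whether the share of a message on polysomes changed, as the polysomal change minus the subpolysomal change, here called the translational efficiency change. None of the 8 genes was called by limma, with 1.10% of all genes called lower and 0.403% higher. At an unadjusted p below 0.05 there was 1 gene, Oaz1, higher, with 7.36% of all genes lower and 5.14% higher. Oaz1 gave 0.34 (0.0076 to 0.68, adjusted p = 0.386), a value that was 0.059 with 75th percentile scaling. Oaz2 gave 0.31 (-0.23 to 0.86), Sat1 0.19 (-0.33 to 0.71), Smox 0.17 (-0.26 to 0.60) and Azin1 0.14 (-0.085 to 0.36), or 0.022 with the 2 Azin1 probes detected on all 16 arrays. Odc1 gave 0.032 (-0.56 to 0.62), Sms -0.047 (-0.34 to 0.24) and Srm -0.16 (-0.55 to 0.22). The widest of these intervals, that of Odc1, reached beyond 0.5 on both sides. Those of Oaz1, Oaz2, Sat1 and Smox did so on the upper side and that of Srm on the lower side. Changes of that size in these genes thus lie within the intervals obtained with 4 arrays per group, and the lack of a call does not show that they were absent.

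Same-numbered polysomal and subpolysomal arrays, whose deviations from the group means did not correlate (r = -0.16 to 0.030), gave 4 log2 ratios per state. For Azin1 they were 0.95, 1.17, 1.12 and 1.10 in scramble and 1.24, 1.15, 1.19 and 1.32 in eIF6 shRNA cells, which overlapped slightly (two-sided exact permutation p = 0.0571). These ratios, and the Azin1 values within slides below, include the probe with dim subpolysomal spots. For Oaz1 they were 0.77, 0.55, 0.63 and 0.48 against 1.12, 1.04, 1.21 and 0.44, where only the fourth eIF6 shRNA ratio lay below the scramble range (two-sided exact permutation p = 0.143). The exact permutation p of the other 6 genes ran from 0.171 for Sat1 to 0.971 for Odc1, the smallest p that 4 against 4 allows being 0.0286, with 8 genes tested and the ranges of the 2 states overlapping for each. Within slides, whose arrays correlated weakly (mean r = 0.12 against -0.039 between slides), the efficiency change was above 0 on 4 of 4 slides for Oaz1 (0.14 to 0.55) and for Azin1 (0.0078 to 0.24), and on 1 to 3 of 4 slides for each of the other 6 genes. The share of all genes above 0 on 4 of 4 slides was not computed, so these counts have no background to be read against.

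**Figure D4:**
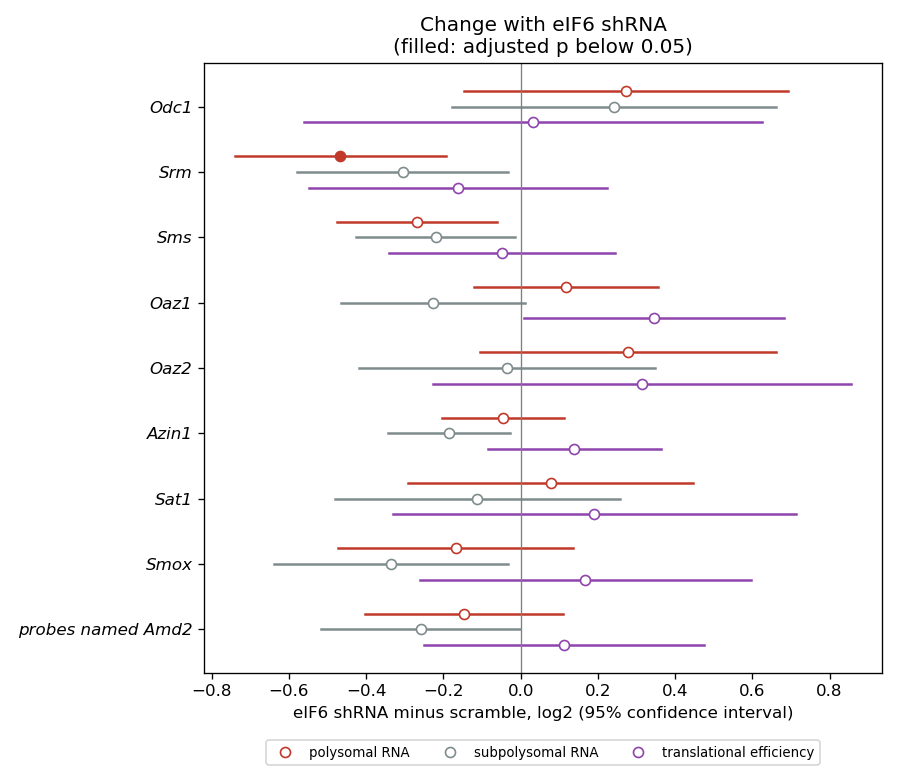
Change with eIF6 shRNA (log2, eIF6 shRNA minus scramble) of each gene in polysomal RNA (red), subpolysomal RNA (grey) and translational efficiency (purple), with limma 95% confidence intervals; filled points have an adjusted p below 0.05. The filled point is Srm in polysomal RNA at -0.47.

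S-adenosylmethionine decarboxylase could be followed only through 3 probes named Amd2. They lie at chr10:40007295-40009195 on mm9, between probes of Gtf3c6 and Cdk19. In the RefSeq gene order of GRCm38.p6 these 2 genes flank Amd1, whereas Amd2 lies between Frk and Hs3st5. The transcript given for all 3 probes, however, is listed under Amd2 in the same RefSeq release. Position and transcript name thus point to different genes, and the 2 decarboxylase genes cannot be told apart by the name. The mean level of the 3 probes was 11.10 to 11.32 on scramble and 10.90 to 10.99 on eIF6 shRNA subpolysomal arrays, and 10.56 to 11.22 and 10.65 to 10.94 on polysomal ones. None of the 5 comparisons passed the test, with -0.15 (limma adjusted p = 0.468) in polysomal RNA, -0.26 (adjusted p = 0.137) in subpolysomal RNA and 0.11 (adjusted p = 0.860) for translational efficiency. Without replicate 4 these probes were called lower in polysomal RNA (-0.23, adjusted p = 0.0489) and in subpolysomal RNA (-0.30, adjusted p = 0.0124).

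Beyond the 8 genes, 39 genes of 5 related lists were tested. With eIF6 shRNA 7 were lower and 2 higher on polysomes (10.7% and 11.1% of all genes), 5 lower and 3 higher in subpolysomal RNA (12.3% and 11.8% of all genes), and none lower and 1 higher in translational efficiency (1.10% and 0.403% of all genes). In all these genes the median change was -0.048 on polysomes, -0.028 in subpolysomal RNA and -0.057 in translational efficiency. Gradient differences were called for 4 lower and 25 higher in scramble (28.4% and 31.7% of all genes) and 4 lower and 20 higher in eIF6 shRNA cells (28.7% and 32.1% of all genes). With spike-in scaling the shRNA calls of the list genes named here were lost, other than those of Gpc1 in both fractions and of Atp13a4 on polysomes.

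Among 5 other polyamine enzymes and regulators, Adc, now named Azin2, a relative of Odc1 that acts as an antizyme inhibitor, fell on polysomes by 0.82 (SE 0.17, limma adjusted p = 0.00235) at dim levels of 5.98 ± 0.073 and 5.16 ± 0.068 (SD, n = 4). Paox, the oxidase that acts on acetylated polyamines made by Sat1, was at 12.18 ± 0.15 (SD, n = 4) in scramble and 11.56 ± 0.058 in eIF6 shRNA subpolysomal RNA, and at 11.61 ± 0.11 and 11.63 ± 0.090 in polysomal RNA. It fell in subpolysomal RNA by 0.63 (adjusted p = 1.03e-04) and its translational efficiency rose by 0.65 (SE 0.12, limma adjusted p = 0.0146). That efficiency call was lost without each of the 4 replicates in turn (adjusted p = 0.0677 to 0.153) and with spike-in scaling, and the 2 Paox probes share 54 bases. Sat2, a relative of Sat1 named here after its value was seen, rose in subpolysomal RNA by 0.42 (adjusted p = 0.0160), a call made in 8 of 17 alternatives.

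Both eIF5A genes, whose proteins carry the hypusine made from spermidine, fell on polysomes: Eif5a2 by 0.64 (SE 0.12, limma adjusted p = 0.00112) and Eif5a, named after its value was seen, by 0.39 (SE 0.11, adjusted p = 0.0173). Dhps and Dohh, the 2 enzymes that build hypusine, gave -0.053 and 0.026. The Eif5a call was lost without replicate 1 and without replicate 3 (adjusted p = 0.0947 and 0.202), the same 2 replicates as for Srm, and with 75th percentile (-0.26, adjusted p = 0.179) and spike-in scaling (-0.72, adjusted p = 0.615).

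Of 8 transport genes, Gpc1, a heparan sulfate proteoglycan implicated in polyamine uptake, fell by 2.08 on polysomes (SE 0.11, limma adjusted p = 4.26e-09) and by 1.56 in subpolysomal RNA (adjusted p = 1.19e-07), and the call held in all 17 alternatives for both fractions. Atp13a4, a relative of the lysosomal polyamine exporter Atp13a2, rose by 2.04 on polysomes and Cav1, the caveolar coat protein, fell by 0.69; these 2 were named after their values were seen. The Atp13a4 value could be computed in 16 of the 17 alternatives and ran from 0.49 (normexp background) to 2.38, so its size depended on the background correction. It had no value with only probes detected on all 16 arrays, so it rests in part on dim spots. The Cav1 call was lost without replicate 1, 2 or 3 (adjusted p = 0.0611, 0.119 and 0.118). Of 13 genes of ornithine and methyl-donor supply, Got1, an aspartate aminotransferase, rose on polysomes by 0.58 (adjusted p = 0.0258) and Asl, a urea cycle enzyme, rose in subpolysomal RNA by 0.85 (adjusted p = 0.0193). Both calls were lost without replicate 1, 2 or 3, with adjusted p = 0.0931, 0.0566 and 0.248 for Got1 and 0.126, 0.0805 and 0.0985 for Asl. Of 9 Myc network genes, to which the regulators of Odc1 transcription belong, Mxd3 fell by 0.70 on polysomes (adjusted p = 0.00206) and by 0.47 in subpolysomal RNA, Mxd1 by 0.30 and 0.36, and Max by 0.29 in subpolysomal RNA. The Mxd3 subpolysomal call was lost without replicate 1, 2 or 3 (adjusted p = 0.127, 0.0625 and 0.169), and the Mxd1 polysomal call was made in 8 and the Max call in 10 of 17 alternatives. Mxd1 and Max were named outside the rule for list genes given below. Myc itself gave -0.17 (adjusted p = 0.482) and -0.22 (adjusted p = 0.297).

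Over the 16 arrays some members moved side by side. Odc1 and Oaz2 correlated with Pearson r = 0.92, Azin1 and Oaz1 with 0.91, Oaz2 and Sat1 with 0.80 and Azin1 and Sms with 0.78, as a description in which the arrays share their fraction and shRNA. Among 14582 genes well above background on all arrays, those most like Odc1 were Stard10 (r = 0.97), Mtfr1l (0.97) and Egln1 (0.97). The gene most like each other member was Nek6 for Srm (0.96), Brd3 for Sms (0.97), Smdt1 for Oaz1 (0.98), Sema4a for Oaz2 (0.98), Zfp869 for Sat1 (0.99) and Rhno1 for Smox (0.96), and for Azin1 a probe without a gene name, A_55_P1993121 (0.99).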

How the data were processed

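RNA of AML12 cells was measured on 16 one-colour Agilent arrays. The deposited files hold spot intensity (background-corrected processed signal and flags) from Agilent Feature Extraction, version 10.7.7.1 per the labels and 10.7.3.1 per the file headers. A table of log2 values deposited by the authors served as an alternative and correlated with the scanner log2 signal at r = 0.995 to 1.00 per array.

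Of 39429 non-control probes, 25262 were kept that were well above background on at least 2 of 4 arrays of a group. Log2 processed signals were quantile-normalized and averaged over the kept probes of a gene name. Group means were fitted across 19367 genes with limma 3.58.1 in R 4.3.3, with Benjamini-Hochberg adjustment across the whole set and a threshold of 0.05. The fit was tested on simulated data. Arrays 1 to 4 are numbered as in the titles. The number of arrays, 4 per group, limits the precision. The limma p-values set each difference against the spread of these arrays within groups, moderated across genes.

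The accessions of 17 of the 19 member probes were found in the RefSeq table of GRCm38.p6, each under the probe's own gene name. Slides were checked as a block and within-slide values computed. Deviations of same-numbered arrays from their group means correlated above 0.1 for some pairs but not for all (r = -0.16 to 0.41 over the 4 pairs of groups), so the numbers were not used as a block in the fits reported.

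The members and lists were chosen with earlier results of these data known. All members were named, from each related list the called gene with the greatest change in each comparison, and the genes most like each member by Pearson correlation. Besides the genes marked as named after their values were seen, Mxd1, Max, Myc, Dhps and Dohh were named outside this rule. Alternatives were other scalings, background correction, detection filters, probe choice, the authors' table, slide and replicate blocks, and leaving out replicates, to which leaving out single arrays was added after the data were seen.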

Additional observations from a re-analysis of the deposited data

Results flagged for a closer look

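In 36 groups of 4 arrays (the 8 polyamine genes and the probes named Amd2, in 4 groups each), 2 held an array far from the other 3, and chance flags about 1 group in 20. In scramble polysomal RNA, Srm on array 3 was at 14.09 against 13.90 on the nearest array, a gap of 0.852 of the group's range. Without replicate 3 the polysomal difference of Srm was -0.37 (limma adjusted p = 0.186). In scramble subpolysomal RNA, Sat1 on array 4 was at 10.96 against 11.58, a gap of 0.897 of the range. Without replicate 4 the Sat1 difference in subpolysomal RNA was -0.35 (limma adjusted p = 0.0152), against -0.11 (adjusted p = 0.693) with all arrays.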

How the results depend on the processing

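With 17 alternatives per comparison, the number of polyamine genes called on polysomes was 1 and became 0 with spike-in scaling and 2 with normexp background. It was 0 in subpolysomal RNA and became 1 with normalization before the filter, without a detection filter and with the authors' table (Azin1), and with the brightest probe (Smox). The Azin1 value in those settings includes the probe with dim subpolysomal spots. For translational efficiency it was 0 throughout. Leaving out replicates or single arrays gave 0 to 2 on polysomes, 0 to 4 in subpolysomal RNA, 0 for efficiency, 4 to 7 for the scramble gradient (7 with all arrays) and 3 to 6 for the eIF6 shRNA gradient (6 with all arrays). The lowest of the last 2 counts came without replicate 2.

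Same-numbered arrays of the 2 fractions correlated at -0.16 to 0.030 in their deviations from the group means, and same-numbered polysomal arrays of the 2 shRNAs at -0.039 to 0.41, the highest for number 4; not every pair was above 0.1, and whether the numbers mark a shared batch is not given in the sources used here. With the replicate number as a block, Srm in the scramble gradient kept its value of 0.31 with limma adjusted p = 0.0760, and with the culture as a random block adjusted p = 0.0510; the numbers of genes called on polysomes, in subpolysomal RNA and for efficiency stayed at 1, 0 and 0, and that of the eIF6 shRNA gradient at 6.

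Directions turned as follows, and the cause was not tested. With spike-in scaling, which moved the median of all genes to -0.48 on polysomes, -0.24 in subpolysomal RNA and -0.21 for efficiency, the polysomal values were -0.20 for Odc1, -0.37 for Oaz1, -0.19 for Oaz2 and -0.39 for Sat1, and the efficiency values -0.23 for Odc1, -0.12 for Oaz1, -0.11 for Azin1, -0.017 for Sat1, -0.041 for Smox and -0.11 for Amd2. The gradient values under it were 1.19 and 0.96 for Odc1, 1.01 and 1.08 for Oaz2, 0.86 and 0.84 for Sat1, and 1.63 and 1.53 for Amd2 in scramble and eIF6 shRNA cells, and 1.75 for Smox in scramble. With 75th percentile scaling Oaz1 gave -0.24 and -0.18 in the gradients and 0.033 in subpolysomal RNA, Oaz2 0.023 in subpolysomal RNA, and Odc1 -0.048 for efficiency, also as the difference of ratios. With each fraction normalized separately the scramble gradient was -0.16 for Oaz1, 0.13 for Smox and 0.0028 for Amd2, and the eIF6 shRNA gradient 0.11 for Amd2. With the brightest probe Sms gave -0.22 in both gradients and 0.0047 for efficiency. Leaving out replicates gave Azin1 -0.085 to 0.020 on polysomes (highest without replicate 2), Sat1 -0.043 to 0.20 on polysomes, Oaz2 0.023 in subpolysomal RNA and Smox 0.15 in the scramble gradient (without replicate 4), and Odc1 -0.17 to 0.22 for efficiency (-0.033 and -0.17 without replicates 1 and 4). The number of genes called over the whole array ranged from 1044 to 2370 lower and 98 to 2625 higher on polysomes, 346 to 3106 lower and 39 to 3049 higher in subpolysomal RNA, and 26 to 408 lower and 2 to 177 higher for efficiency. In the gradients it ranged from 391 to 8473 lower and 4115 to 13323 higher in scramble, and from 478 to 8916 lower and 3986 to 11192 higher in eIF6 shRNA cells.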
